A study of Mus musculus with 6 samples.

Results

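The genes described here are 41 components of the DNA replication machinery and of deoxynucleotide synthesis. They were listed by name as a functional group, with earlier results of these data known. All 41 were found by symbol among the 16854 genes of the deposited table, and all 41 passed the filter on low values. They were taken by role as origin licensing (5 genes), the MCM helicase (6), helicase activation (6), polymerases and primase (8), the sliding clamp and its loader (6), single-strand binding (3), Okazaki fragment maturation (2) and nucleotide supply (5). They were measured in C2C12, an established mouse myoblast line that leaves the cell cycle and fuses into myotubes when serum is withdrawn. Confluent cells were moved to medium with 2% horse serum, and poly(A) RNA was sequenced on day 3 of differentiation, as paired reads on an Illumina HiSeq instrument. The control group (3 libraries) carried a scramble short hairpin RNA, and the knockdown group (3 libraries) stably expressed a hairpin against Adamtsl2, which encodes a secreted extracellular matrix protein. Both groups were C2C12 cells under the same serum and the same day. Whether the stable cells were 1 clone or a pool, and how many hairpins were used, is not given in the sources used here, so the effect of the knockdown and other differences between the stably modified cells cannot be told apart. Nothing says that the libraries of a group came from separate cultures, so p-values measure the spread between these libraries, which may be technical.

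Before a chromosome can be copied, the origin recognition complex, Cdc6 and Cdt1 load the ring of MCM proteins onto DNA. Cdc45 and the GINS complex then turn that ring into a moving helicase, and primase and the replicative polymerases copy the strands behind it, held by the PCNA clamp that replication factor C loads. Ribonucleotide reductase, thymidylate synthase and thymidine kinase supply the deoxynucleotides. Many of these genes are classical targets of E2F transcription factors, and in muscle cells the programme is known to be shut down as myoblasts exit the cell cycle.

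The labelled knockdown was checked first. Adamtsl2 had 1325, 1266 and 1307 in the control and 23.2, 21.7 and 7.83 in the knockdown libraries, in normalised counts, the authors' unit of reads per gene scaled to make libraries comparable. Its log2 change, knockdown minus control, was -6.26 ± 0.41 (SE, n = 3 per group; limma, adjusted p = 0.00011), and an exact two-sided permutation test gave p = 0.1, which is the lowest value possible with 3 libraries in each group. Recovered reads totalled 37346439 to 50329438 per library, so 1 read was worth 0.829 to 1.26 normalised counts and the members, with means of 110.2 to 4284, stood far above the counting floor of 3 reads. Knockdown library 3 stood apart from the rest: across genes its log2 values had Pearson correlations of 0.904 and 0.907 with the other knockdown libraries, which correlated with each other at 0.995, against 0.992 to 0.994 among controls. The nuclear RNA Malat1 took 2.83% of its reads, against 0.302% to 0.515% in the other libraries, and protein-coding genes took 93.6%, against 97.7% to 98.0%. Where leaving out that library changes a member's call, or its change by over 1.5 times, the value without it is given. Markers of differentiated muscle summed to 1.04e+06 to 1.06e+06 normalised counts in the control and 7337 to 8367 in the knockdown, and 7 of 7 fell. Myoblast markers summed to 23001 to 23752 and 2258 to 3810, with 3 of 4 lower (Myod1, Pax7 and Cdh15) and 1 higher (Myf5). Myf5 had 781, 875 and 708 in the control and 1118, 1104 and 1051 in the knockdown (limma, adjusted p = 0.0248). Pax7 was at 0 in knockdown libraries 1 and 2 and at 14.5 in library 3. The labelled cell type was thus visible in the control by its muscle markers, which, apart from Myf5, were largely lost in the knockdown. Fibroblast markers (5 of 6 in the table) summed to 762852 to 834673 and 298239 to 447252. Of these, Dcn was higher (log2 change 4.22), Col1a1 was lower (-4.96) and the others did not pass. Endothelial markers (2 of 5) summed to 6.32 to 6.65 and 18.2 to 90.5. Those of macrophages (2 of 5), epithelium (2 of 5) and neurons (3 of 5) never summed above 199 in a library, and none of the 5 adipocyte markers was in the table. Their part in the members' changes was not tested.

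Across the 41 genes, the knockdown held less RNA for much of the machinery, but not for all of it. With limma, 17 members fell, against 23.5% of all genes tested, and 4 rose, against 21.7% of all genes tested, while 20 did not pass an adjusted p of 0.05. Those that fell were Rrm2, Mcm5, Mcm10, Cdc6, Gmnn, Pole, Cdc45, Rrm1, Tk1, Mcm2, Mcm7, Pold2, Rfc3, Rfc5, Rfc2, Gins2 and Mcm6. The risers were Orc6, Mcm4, Rpa1 and Prim1. The 17 are 41.5% of the members, above the share of falling genes in the whole table, and the 4 are 9.76%, below the share of rising genes. Changes of at least 2-fold were found for 11 members downward (16.5% of all genes tested) and 3 upward (15.6%). The median log2 change of the members was -0.42, against -0.00 over all genes tested, and 28 of 41 had a negative change. All 3 control values lay above all 3 knockdown values for 23 members (32.7% of all genes tested) and below them for 7 (30.0%), while the groups overlapped for 11. Leaving out knockdown library 3 gave 24 members lower, against 39.9% of all genes tested, and 8 higher, against 38.6%, with a median of -0.40. Fewer cycling cells and less of these RNAs per cell cannot be told apart in bulk RNA.

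**Figure D1:**
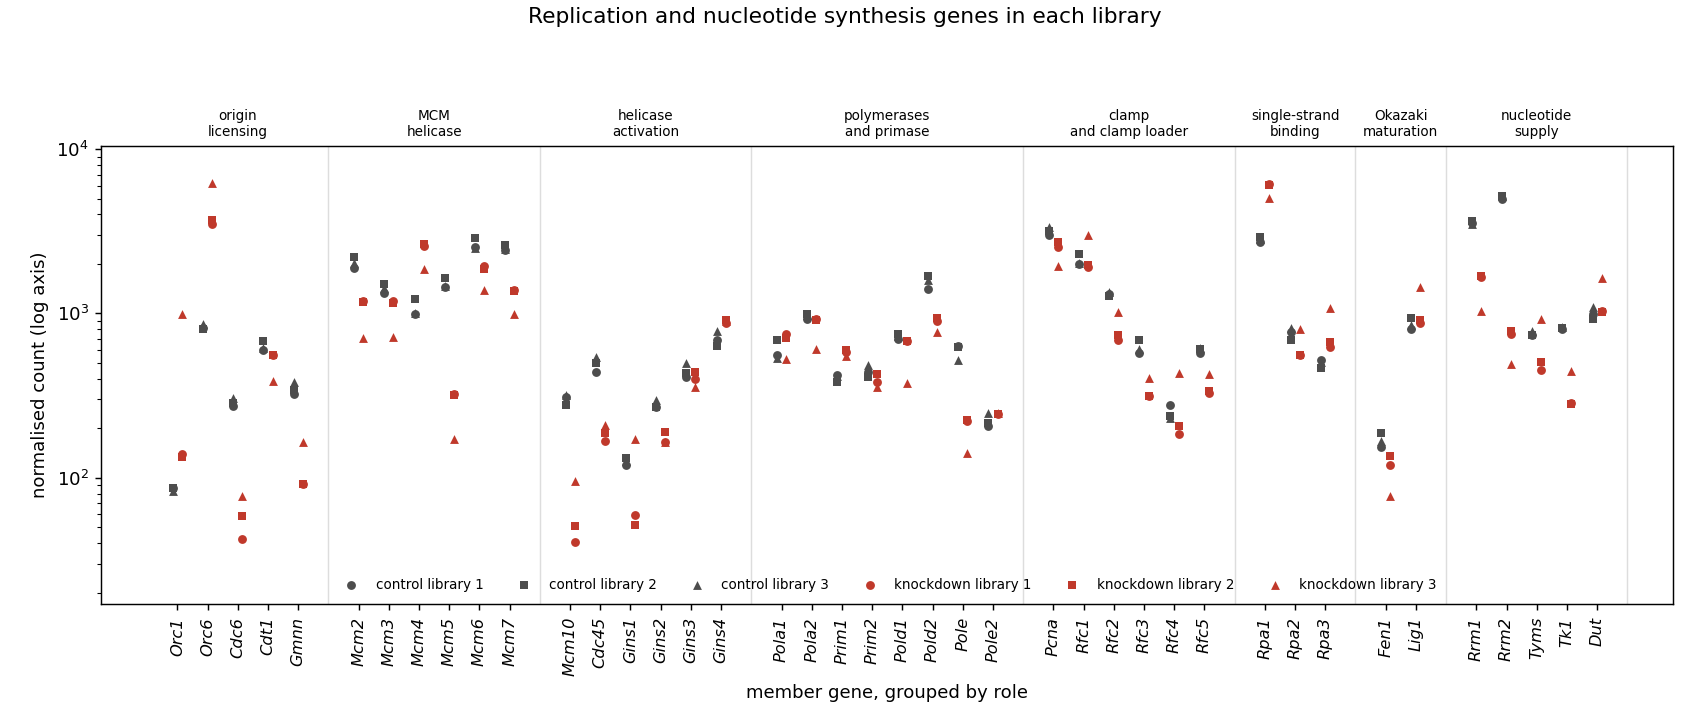
Normalised count (log axis) of each of the 41 genes in the 3 control libraries (grey) and the 3 knockdown libraries (red), grouped by role, with the marker shape giving the library number. Rrm2, Mcm5, Mcm10 and Cdc6 lie far lower in every knockdown library, Orc6, Mcm4 and Rpa1 lie higher, and the triangle of knockdown library 3 often stands away from the other knockdown libraries.

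**Figure D2:**
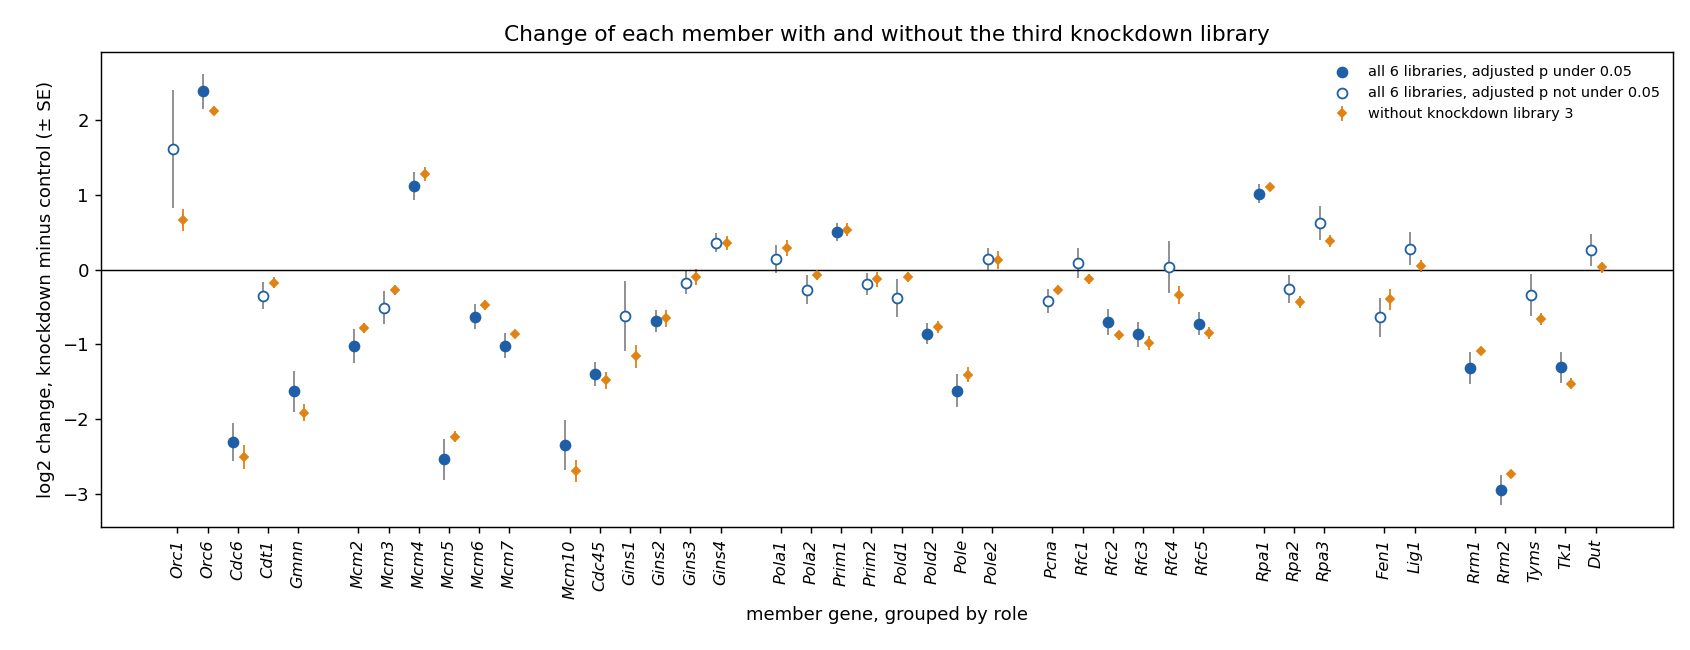
Log2 change, knockdown minus control, of each gene with all 6 libraries (circles, filled where the adjusted p was under 0.05; bars are SE) and without knockdown library 3 (diamonds). The changes run from -2.95 for Rrm2 to 2.39 for Orc6, and the bar of Orc1 is the longest.

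The start regions of 4 members are shown because they carry the largest fall (Rrm2), the largest rise (Orc6) and, within the MCM ring, the subunit that fell most (Mcm5) beside the one that did not pass the test (Mcm3). Each window runs 5′ to 3′ on the gene's strand, from 250 bases before to 50 bases after a RefSeq transcript start on GRCm38.p6, with E2F-type and NF-Y-type letters in capitals.
Rrm2: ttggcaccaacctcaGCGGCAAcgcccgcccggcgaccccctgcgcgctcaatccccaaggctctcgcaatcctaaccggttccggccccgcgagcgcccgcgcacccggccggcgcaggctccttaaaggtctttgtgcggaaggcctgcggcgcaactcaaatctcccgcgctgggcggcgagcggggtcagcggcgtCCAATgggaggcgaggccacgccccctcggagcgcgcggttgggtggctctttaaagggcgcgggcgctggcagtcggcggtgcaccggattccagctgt
Mcm5: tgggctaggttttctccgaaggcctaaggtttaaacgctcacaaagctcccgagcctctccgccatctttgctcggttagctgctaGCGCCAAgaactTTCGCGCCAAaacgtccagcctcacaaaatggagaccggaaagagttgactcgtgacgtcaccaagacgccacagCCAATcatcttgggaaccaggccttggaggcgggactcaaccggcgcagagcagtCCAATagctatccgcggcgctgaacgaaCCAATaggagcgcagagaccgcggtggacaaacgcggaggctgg
Mcm3: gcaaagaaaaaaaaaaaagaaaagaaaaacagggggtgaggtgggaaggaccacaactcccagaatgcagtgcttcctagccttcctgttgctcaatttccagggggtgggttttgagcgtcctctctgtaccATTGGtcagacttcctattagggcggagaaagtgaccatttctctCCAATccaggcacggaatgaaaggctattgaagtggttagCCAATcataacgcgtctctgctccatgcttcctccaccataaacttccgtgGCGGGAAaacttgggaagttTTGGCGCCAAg
Orc6: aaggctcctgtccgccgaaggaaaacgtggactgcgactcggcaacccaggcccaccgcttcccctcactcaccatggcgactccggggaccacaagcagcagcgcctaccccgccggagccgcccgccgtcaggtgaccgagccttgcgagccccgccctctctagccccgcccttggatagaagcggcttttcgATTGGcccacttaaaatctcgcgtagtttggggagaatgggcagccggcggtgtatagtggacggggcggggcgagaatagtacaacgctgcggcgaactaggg
The windows lie at chr12:24708004-24708303, plus strand (Rrm2), chr8:75109259-75109558, plus strand (Mcm5), chr1:20820263-20820562, minus strand (Mcm3) and chr8:85299382-85299681, plus strand (Orc6). Both strands were searched for the E2F-type letters TTCCCGC and also for TTGGCGC as well as for TTCGCGC and lastly for TTGCCGC, whose matches may overlap each other. They were searched for the NF-Y-type letters CCAAT too. Mcm5 and Mcm3 each held 3 E2F-type and 3 CCAAT matches although Mcm5 fell and Mcm3 did not pass the test, Rrm2 held 1 of each, and Orc6 held only 1 CCAAT match. Counted from the RefSeq start, the E2F-type matches of Mcm5 begin at -164, -152 and -149, and those of Mcm3 at 19, 39 and 42. The RefSeq start of Mcm5 lies 60 bases from the GENCODE start used for its position. RefSeq windows were matched by symbol for 33 of the 41 members; Mcm4, Gins1, Gins2, Gins4, Prim2, Pole, Rfc2 and Gmnn were not matched. An E2F-type match was present in 21 of the 33 (63.6%), against 10.9% of 27025 genes with a window, and a CCAAT match in 21 of the 33, against 41.1%. By direction, E2F-type letters were in 7 of 13 matched members that fell, 1 of 3 that rose and 13 of 17 that did not pass. CCAAT was in 10 of 13, 3 of 3 and 8 of 17. A match describes these letters only, and no test was run on these shares.

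Origin licensing held the widest spread of changes, with Cdc6 and Gmnn lower, Orc6 higher, and Orc1 and Cdt1 not past the threshold. Cdc6, the ATPase that helps to load the MCM ring, had 275, 287 and 306 in the control and 42.3, 58.6 and 77.1 in the knockdown libraries 1 to 3, the order used for all values. Its log2 level fell by 2.31 ± 0.25 (SE; limma, adjusted p = 0.000778), and every knockdown value lay far below every control value. Geminin (Gmnn), which binds Cdt1 and blocks a second round of licensing, had 325, 339.8 and 380.0 in the control and 92.0, 91.2 and 165 in the knockdown. It fell by 1.63 ± 0.27 (adjusted p = 0.00414). Its partner Cdt1 had 598, 676 and 618 in the control and 562, 555 and 389 in the knockdown. The groups of Cdt1 did not overlap, but its change of -0.35 ± 0.18 did not pass (adjusted p = 0.177; -0.17 and 0.0681 without knockdown library 3). Per exonic kilobase, the ratio of Gmnn to Cdt1 was 1.19 ± 0.122 in the control and 0.538 ± 0.323 in the knockdown (SD, n = 3 each), or 0.351 in the knockdown without library 3.

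Orc6, the smallest subunit of the origin recognition complex, was the member that rose most. It had 812, 806 and 859 in the control and 3508, 3721 and 6223 in the knockdown, and every knockdown library was several times any control. The log2 change was 2.39 ± 0.24 (adjusted p = 0.000497), or 2.13 without knockdown library 3. Orc1, the ATPase subunit of the same complex, had 86.1, 87.2 and 83.6 in the control and 140.1, 133 and 986 in the knockdown. The groups of Orc1 did not overlap, yet knockdown library 3 alone was many times the others, and the change of 1.61 ± 0.78 had a 95% interval of -0.30 to 3.53 and an adjusted p of 0.146. Without that library the change of Orc1 was 0.67 and passed (adjusted p = 0.00164). With all 6 libraries, Orc1 passed with DESeq2 on recovered reads (2.33, adjusted p = 0.0104) and in the authors' own comparison (2.29, 0.0118). It did not pass with edgeR (2.34, 0.0725). Relative to Orc2, a subunit outside the list that fell, Orc6 per exonic kilobase stood at 0.962 ± 0.106 in the control and 9.91 ± 6.55 in the knockdown, or at 6.13 in the knockdown without library 3.

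The 6 subunits of the MCM helicase, which work as a ring with 1 copy of each, moved in both directions: Mcm2, Mcm5, Mcm6 and Mcm7 fell, Mcm4 rose and Mcm3 did not pass. Mcm5 had 1440.4, 1641 and 1466 in the control and 323, 317 and 171 in the knockdown and fell by 2.54 ± 0.27 (SE; limma, adjusted p = 0.000687). Mcm4 had 990.4, 1226 and 999 in the control and 2563, 2627 and 1858 in the knockdown, a log2 change of 1.12 ± 0.18 (adjusted p = 0.00368). Neither gene's groups overlapped, and the directions were opposite in all 3 knockdown libraries. Mcm2 had 1884, 2193 and 2016 in the control and 1189.7, 1168 and 708 in the knockdown, Mcm6 had 2541, 2882 and 2516 in the control and 1935, 1869 and 1384 in the knockdown, and Mcm7 had 2447, 2606 and 2473 in the control and 1393, 1378 and 993 in the knockdown. Mcm2 and Mcm7 were thus about 2-fold lower, with log2 changes of -1.03 ± 0.23 and -1.02 ± 0.16, and Mcm6 was lower by less, at -0.63 ± 0.17. Mcm3, with 1327, 1502 and 1432 in the control and 1189.7, 1159 and 715 in the knockdown, was below every control value in all knockdown libraries, but at -0.51 ± 0.22 it missed the threshold (adjusted p = 0.11; 95% interval -1.05 to 0.03). Without knockdown library 3 it passed at -0.27 (adjusted p = 0.00332). The call of Mcm6 was lost when any 1 control library was left out (adjusted p = 0.0702 to 0.0931), and that of Mcm2 without control library 2 or 3 (0.0556 and 0.0511). All 6 subunits were lower in knockdown library 3 than in libraries 1 and 2, as were 7968 of the 16245 genes tested.

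Set on a scale of normalised counts per exonic kilobase, the share of Mcm4 in the MCM transcripts was higher, and those of Mcm2, Mcm5, Mcm6 and Mcm7 lower, in each knockdown library than in any control. Mcm4 made up 11.7%, 12.8% and 11.5% of the summed level of the 6 subunits in the control and 35.5%, 36.6% and 37.7% in the knockdown. Mcm5 went from 15.3%, 15.4% and 15.2% to 4.02%, 3.97% and 3.12%. The subunit with the smallest share among the 6 was thus Mcm2 or Mcm4 in each control library and Mcm5 in each knockdown library, while Mcm4 had the largest share in the knockdown. The share of Mcm3 was 15.0%, 15.0% and 15.8% in the control and 15.8%, 15.4% and 13.9% in the knockdown, with overlapping groups. The ratio of Mcm4 to Mcm5 was 0.785 ± 0.0405 in the control and 10.04 ± 1.78 in the knockdown (SD, n = 3 each). The difference in change between subunits was not tested. Shares of one whole are tied to each other, so part of each lower share follows from the higher share of Mcm4. Mcm4 lies at chr16:15623897-15637400 and Mcm5 at chr8:75109569-75128439 (GRCm38).

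**Figure D3:**
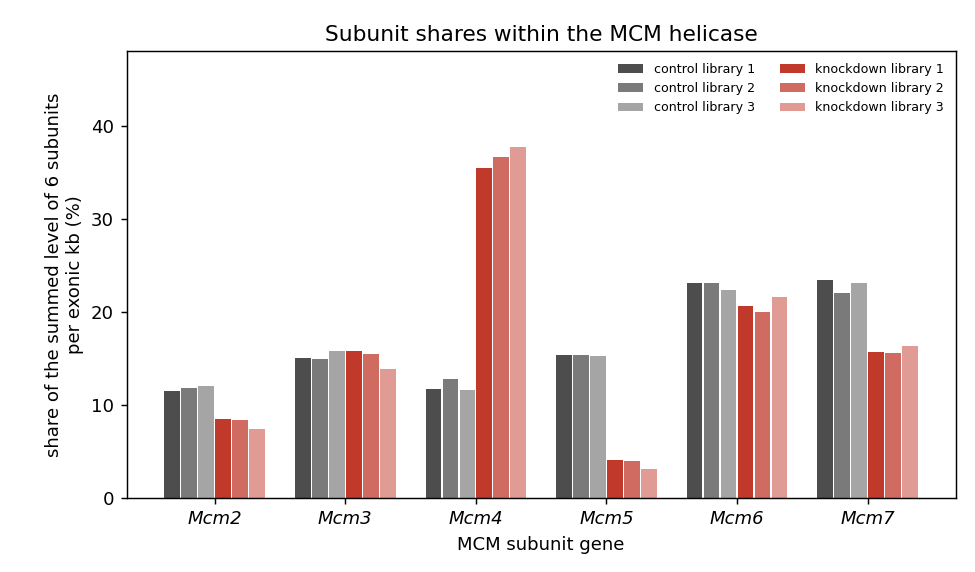
Share (%) of each MCM subunit in the summed level of all 6, in normalised counts per exonic kilobase, with 1 bar per library (control in greys, knockdown in reds). Mcm4 rises from 11.5% to 12.8% in the controls to 35.5% to 37.7% in the knockdown libraries, and Mcm5 drops to 3.12% to 4.02%.

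Among the genes that turn the loaded ring into an active helicase, Mcm10, Cdc45 and Gins2 fell and no gene rose. Mcm10, a factor needed to start unwinding, had 311, 275 and 318 in the control and 40.6, 51.0 and 96.1 in the knockdown and fell by 2.34 ± 0.34 (adjusted p = 0.00228). Cdc45, the helicase cofactor, had 440.2, 498 and 546 in the control and 167, 187 and 210.2 in the knockdown and fell by 1.39 ± 0.16 (adjusted p = 0.00101). Both were lower in all 3 knockdown libraries. Of the 4 subunits of the GINS complex, which clamps the ring to Cdc45, Gins2 passed and the others did not. Gins2 had 270.2, 270.3 and 298 in the control and 165, 191 and 165 in the knockdown and fell by 0.69 ± 0.15 (adjusted p = 0.0119), a call that was lost without control library 1 (0.0541) or 3 (0.0647). Gins1 had 119, 131 and 127 in the control and 59.7, 51.9 and 172 in the knockdown, so that knockdown libraries 1 and 2 were below and library 3 above every control. Its change was -0.62 ± 0.47 (adjusted p = 0.325), and -1.16 without library 3 (adjusted p = 6.84e-05). Gins3 had 409.7, 437 and 501 in the control and 400.4, 437 and 354 in the knockdown, with overlapping groups and a change of -0.18 ± 0.15 (-0.10 without library 3), which did not pass either way. Gins4 had 686, 633 and 778 in the control and 875, 912 and 894 in the knockdown, higher in all 3 knockdown libraries but not past the threshold at 0.36 ± 0.13 (adjusted p = 0.0613). It passed with edgeR (0.0425) and with DESeq2 (0.016) on the recovered reads, and with limma without library 3 (0.36, 0.00419).

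Of the 8 polymerase and primase genes, the catalytic subunit of polymerase epsilon and a subunit of polymerase delta fell, 1 primase subunit rose, and 5 did not pass. The share that fell, 25%, was near the 23.5% of all genes tested, and 12.5% rose, against 21.7%. Pole, the catalytic subunit of the leading-strand polymerase, had 629.8, 625 and 521 in the control and 221, 224 and 142 in the knockdown and fell by 1.62 ± 0.22 (adjusted p = 0.00196). Its partner Pole2 had 207, 215 and 249 in the control and 245, 244 and 248 in the knockdown, with overlapping groups and a change of 0.14 ± 0.15 (95% interval -0.22 to 0.50). The catalytic subunit of the epsilon polymerase was therefore lower in every knockdown library while its accessory subunit was not. In polymerase delta it was the accessory subunit that passed and the catalytic one that did not. Pold2, the accessory subunit, had 1416, 1685 and 1608 in the control and 899.5, 938 and 767 in the knockdown and fell by 0.86 ± 0.14 (adjusted p = 0.00344). Pold1, the catalytic subunit, had 697, 745 and 726 in the control and 678, 677 and 376 in the knockdown, lower in every knockdown library than in any control, with a change of -0.38 ± 0.26 (adjusted p = 0.278) that was -0.09 (0.231) without knockdown library 3. These differences between subunits were not tested.

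Of the primase and polymerase alpha genes, which lay down the primers, Prim1 rose and the other members did not pass. Prim1, the catalytic primase subunit, had 421, 380.2 and 418 in the control and 581, 598 and 552 in the knockdown and rose by 0.51 ± 0.12 (adjusted p = 0.0172). Prim2, its regulatory partner, had 442, 408 and 483 in the control and 382, 429.9 and 355 in the knockdown with overlapping groups. Per exonic kilobase, the ratio of Prim1 to Prim2 was 1.41 ± 0.0682 in the control and 2.28 ± 0.132 in the knockdown (SD, n = 3 each). The rise of Prim1 lost its call in any fit short of 1 control library, and likewise short of the first or second knockdown library (adjusted p = 0.062 to 0.0738). Pola1, the catalytic subunit of polymerase alpha, had 558, 688 and 537 in the control and 744, 706 and 525 in the knockdown, and knockdown library 3 was below every control while libraries 1 and 2 were above. Pola2 had 923, 994 and 976 in the control and 923, 911 and 610.4 in the knockdown, with control library 1 and knockdown library 1 less than 1 count apart. Neither passed, with changes of 0.14 ± 0.19 for Pola1 and -0.27 ± 0.19 for Pola2. Without library 3, Pola1 passed as higher at 0.29 (adjusted p = 0.0271), and Pola2 was at -0.07 (0.315).

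Of the clamp and clamp loader genes, Rfc2, Rfc3 and Rfc5 fell, none by as much as 2-fold, and Pcna, Rfc1 and Rfc4 did not pass. Pcna, the sliding clamp, had 2992, 3155 and 3346 in the control and 2537, 2709 and 1936 in the knockdown, with a log2 change of -0.42 ± 0.16 (adjusted p = 0.0774; -0.27 and 0.00196 without knockdown library 3). The reference annotation holds the pseudogene copies Pcna-ps1 and Pcna-ps2, and how reads shared with them were counted is not given in the sources used here. Rfc3, a small loader subunit, had 574, 692 and 608 in the control and 313, 315 and 405 in the knockdown and fell by 0.86 ± 0.16 (adjusted p = 0.00686). Rfc5 had 573, 608 and 612 in the control and 329, 335 and 429 in the knockdown and fell by 0.72 ± 0.15 (adjusted p = 0.0107). The call of Rfc5 was lost without control library 3 (0.0537). Rfc2 had 1312, 1274 and 1344 in the control and 691, 735 and 1019.5 in the knockdown and fell by 0.70 ± 0.17 (adjusted p = 0.0188), a call lost on leaving out any 1 library other than knockdown library 3 (adjusted p = 0.0584 to 0.0755) and with upper-quartile scaling (0.0689). In Rfc2, Rfc3 and Rfc5 alike, knockdown library 3 lay nearest to the control. Rfc4 had 279, 236 and 232 in the control and 186, 206 and 433 in the knockdown, so that library 3 was above every control and libraries 1 and 2 below. Rfc1, the large subunit, had 2010.3, 2310.2 and 2041 in the control and 1920.1, 1977 and 2981 in the knockdown, again with library 3 highest. The fitted changes were 0.04 ± 0.34 for Rfc4 and 0.09 ± 0.20 for Rfc1, and neither passed. Without library 3, Rfc4 passed in the other direction, as lower, at -0.34 (adjusted p = 0.0269), and Rfc1 was at -0.12 and did not pass (0.128).

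Replication protein A, the trimer that coats single-stranded DNA, had its largest subunit higher and no subunit lower past the threshold. Rpa1 had 2728, 2908 and 2839 in the control and 6118, 6047 and 5066 in the knockdown and rose by 1.02 ± 0.12 on the log2 scale (SE; limma, adjusted p = 0.00108). All knockdown libraries were well above all controls. Rpa2 had 766, 688 and 813 in the control and 561, 556 and 802 in the knockdown, with libraries 1 and 2 below every control and library 3 among them. Rpa3 had 521, 469 and 507 in the control and 628, 670.0 and 1072 in the knockdown, higher in every knockdown library, and its change of 0.62 ± 0.23 missed the threshold (adjusted p = 0.0701). Without library 3, Rpa2 was lower at -0.43 (adjusted p = 0.000827) and Rpa3 higher at 0.38 (0.00156). Per exonic kilobase, Rpa1 stood to Rpa2 at 2.02 ± 0.217 in the control and 5.02 ± 1.41 in the knockdown (SD, n = 3 each). For Okazaki fragment maturation, the flap nuclease Fen1 had 154, 187 and 166 in the control and 120.2, 136 and 77.1 in the knockdown, and the change was -0.64 ± 0.26 (adjusted p = 0.0921). DNA ligase 1 (Lig1) had 803, 933 and 847 in the control and 874, 907 and 1445 in the knockdown, a change of 0.28 ± 0.22, or 0.05 without library 3. Neither of these passed, although the groups of Fen1 did not overlap. Without library 3, Fen1 passed as lower at -0.40 (adjusted p = 0.0244) and Lig1 did not (0.557).

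Nucleotide supply held the member that fell most. Rrm2, the small subunit of ribonucleotide reductase that cycling cells make, had 4954, 5176 and 5207 in the control and 753, 778 and 492 in the knockdown. It fell by 2.95 ± 0.20 (SE; limma, adjusted p = 0.00012), which is 7.73-fold, with no overlap. The large subunit Rrm1 had 3544, 3639 and 3495 in the control and 1666, 1679.6 and 1041 in the knockdown and fell by 1.32 ± 0.21 (adjusted p = 0.00337). Per exonic kilobase, the ratio of Rrm2 to Rrm1 was 5.71 ± 0.189 in the control and 1.84 ± 0.0415 in the knockdown (SD, n = 3 each). Rrm2b, the alternative small subunit that is made outside S phase, is not a member and had 1183, 1117 and 1102 in the control and 1194, 1127 and 739 in the knockdown, with a change of -0.18 ± 0.20 (adjusted p = 0.506; 0.03 and 0.638 without library 3). The ratio of Rrm2 to Rrm2b per exonic kilobase was 14.9 ± 0.951 in the control and 2.18 ± 0.0992 in the knockdown. Rrm2 lies at chr12:24708241-24714146 (GRCm38).

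Thymidine kinase 1 (Tk1), the cytosolic salvage enzyme of cycling cells, had 809.6, 817 and 829 in the control and 285, 283 and 446 in the knockdown and fell by 1.31 ± 0.21 (limma, adjusted p = 0.00343). Its mitochondrial counterpart Tk2, outside the list, had 524, 457 and 494 in the control and 887, 876 and 1207 in the knockdown and rose by 0.99 ± 0.17 (adjusted p = 0.00439). The ratio of Tk1 to Tk2 per exonic kilobase was 1.15 ± 0.0835 in the control and 0.232 ± 0.0188 in the knockdown (SD, n = 3 each). Thymidylate synthase (Tyms), which makes thymidylate afresh, had 741, 744 and 779 in the control and 453, 505 and 922 in the knockdown. Knockdown libraries 1 and 2 of Tyms were below and library 3 above every control, and the change of -0.34 ± 0.28 did not pass (adjusted p = 0.366; -0.66 and 2.23e-05 without library 3). A pseudogene copy, Tyms-ps, is annotated. Dut, the enzyme that keeps uracil out of DNA, had 989, 927 and 1092 in the control and 1031, 1017 and 1641 in the knockdown, with overlapping groups and a change of 0.26 ± 0.22 (0.03 without library 3), which did not pass.

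Knockdown library 3 departed from the other knockdown libraries in different directions in different roles. All 6 MCM genes and 7 of 8 polymerase and primase genes were below both other knockdown libraries, and 5 of 6 clamp and loader genes were above both. Taking all 41 members together, knockdown library 3 was below both others for 20 and above both for 19. Over the 16245 genes tested it was below both for 7968 and above both for 7463. For Gins1, Pola1, Rfc1, Rfc4 and Tyms this library lay beyond the control range on the opposite side from libraries 1 and 2. It was more than 2-fold from their mean for 4 of 41 members (9.76%), Orc1, Gins1, Rfc4 and Mcm10, against 36.5% of all genes tested. Members' median log2 distances from the control mean were -0.43, -0.31 and -0.62 in knockdown libraries 1, 2 and 3. Whether the high Malat1 share of library 3 has a part in this was not tested.

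Replication genes outside the 41 showed a like mix. Of 52 other replication factors, 51 were tested, 22 fell (43.1%, against 23.5% of all genes tested) and 4 rose (7.84%, against 21.7%), with a median log2 change of -0.61. Those with the smallest adjusted p among the fallers were topoisomerase 2-alpha (Top2a, -2.67), the polymerase delta subunit Pold4 (-2.01), the origin-firing kinase Cdc7 (-2.16), the histone chaperone Asf1b (-1.62), the maintenance methylation cofactor Uhrf1 (-2.42) and the fork protection factor Timeless (-1.30). The 4 that rose were Rnaseh2a (2.20), the catalytic subunit of the nuclease that removes ribonucleotides from DNA, Pole3 (0.75), an accessory subunit of polymerase epsilon, Tipin (0.54), the partner of Timeless, and Donson (0.46), a helicase-assembly factor. Polymerase epsilon therefore had Pole lower and Pole3 higher, while its subunits Pole2 and Pole4 did not pass. Pole4 was at -0.40 ± 0.21 (limma, adjusted p = 0.175), or lower at -0.62 (3.06e-06) without knockdown library 3. The fork protection pair had Timeless lower and Tipin higher. Without knockdown library 3, 34 of the 51 were lower (66.7%) and 9 higher (17.6%), against 39.9% and 38.6% of all genes tested in that fit.

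Of 42 other nucleotide synthesis genes, 40 were in the table and tested, 12 fell (30.0%, against 23.5% of all genes tested) and 6 rose (15.0%, against 21.7%), with a median log2 change of -0.34. The fallers with the smallest adjusted p were Mthfd2 (-3.81) and Shmt2 (-2.19), of mitochondrial one-carbon metabolism, Ctps (-1.66), which makes CTP, and the purine enzymes Adsl (-1.09) and Adssl1 (-2.50), with Nme2 (-0.98), a nucleoside diphosphate kinase. The risers were Prps2 (3.14), which makes the ribose phosphate for nucleotides, Samhd1 (1.66), which degrades deoxynucleotides, Ctps2 (1.49), Tk2, the mitochondrial kinase Dguok (0.66) and Cmpk1 (0.60). As with Tk1 and Tk2, Ctps and Ctps2 changed in opposite directions. Samhd1 had 1753, 1706 and 1690.2 in the control and 5513, 5420.3 and 5342 in the knockdown, with no overlap, while Rrm1 and Rrm2 fell. Leaving out knockdown library 3 gave 24 of the 40 lower (60%) and 9 higher (22.5%), against the same 39.9% and 38.6%.

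The rise of Orc6 lay in a stretch of chromosome 8 where most genes were higher. Orc6 lies at chr8:85299632-85308278 (GRCm38, plus strand). Of the other 44 tested genes within 1 Mb of it, 34 rose and 1 fell, with a median log2 change of 1.43. In knockdown libraries 1, 2 and 3 taken singly, the median log2 distance of these genes from their control mean was 1.37, 1.37 and 1.69, with 41, 41 and 38 of the 44 above it. Among 13274 tested genes with at least 10 tested neighbours within 1 Mb, 121 (0.912%) had neighbours with a median at least as high. From 8 Mb before to 12 Mb after Orc6, limits chosen after the values were seen, 143 of the other 218 tested genes rose (65.6%) and 14 fell, against 118 of 690 (17.1%) and 204 on the rest of the chromosome. Rnaseh2a, the replication gene outside the list that rose most, lies within this stretch, and so do Gins3, which did not pass, and the histone chaperone gene Asf1b, which fell. Mcm5, also on chromosome 8, lies 10.2 Mb before Orc6 and outside the limits. What sets the level of this stretch was not tested.

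The genes that start next to the risers on the other strand were also looked at, since close starts can share a promoter region. Orc6 and Vps35, which encodes a retromer subunit, start 170 bases apart, and Vps35 had 7807, 7724 and 7843 in the control and 19409, 19929.6 and 15767 in the knockdown, a rise of 1.23 (limma, adjusted p = 0.000874). Their gene bodies overlap by 171 bases, and whether strand was used in counting is not given in the sources used here, so a small share of reads may belong to either gene. Mcm7, Cdc45, Fen1, Tk1 and Pole2 also overlap a gene on the other strand, by 156 to 421 bases. Rpa1 starts 109 bases from Smyd4, which had 633, 831 and 725 in the control and 1808, 1858 and 5382 in the knockdown, a rise of 1.85 (adjusted p = 0.0165). Mcm4 starts 466 bases from Prkdc, the DNA-dependent protein kinase, which had 968, 1017 and 907 in the control and 2655, 2798 and 1111 in the knockdown. Prkdc was thus higher in knockdown libraries 1 and 2 and near the control in library 3, and its change of 1.07 did not pass (adjusted p = 0.0569). Within 1 Mb, the neighbours of Mcm4 had a median change of 0.84 over 10 tested genes, but went both ways. Of these 10, 4 rose and 3 fell, against 21.7% and 23.5% of all genes tested. The neighbours of Rpa1 had a median of 0.08 and those of Prim1 of -0.06. In all, 11 members had a tested protein-coding partner starting within 1000 bases on the other strand, of which 2 rose, 1 fell (Ufd1, beside Cdc45, -0.36) and 8 did not pass, against 21.7% higher and 23.5% lower among all genes tested. Without knockdown library 3, 5 of these 11 partners were higher, Prkdc among them (adjusted p = 9.40e-09), 5 were lower and 1 did not pass. In that fit, 38.6% of all genes tested were higher and 39.9% lower.

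The count of members lower was similar with other tools, while that of members higher ran from 4 (9.76%) with limma to 7 (17.1%). On recovered whole reads, edgeR's quasi-likelihood test called 17 members lower (22.0% of all genes tested) and 5 higher (23.2%), and DESeq2 called 18 lower (25.3%) and 7 higher (26.7%). The authors' deposited table of their own comparison had 17 members lower (25.2% of genes with an adjusted p there) and 7 higher (26.5%) at an adjusted p under 0.05. The higher members there were those of limma with Orc1, Gins4 and Rpa3 added (authors' adjusted p = 0.0118, 0.0201 and 0.033). In that table, the log2 change was -2.48 for Mcm5, 1.13 for Mcm4 and -0.99 for Mcm2.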

How the data were processed

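The deposited table held, for each library, a normalised signal that the authors made by dividing gene read counts by a size factor, per the file headers, and the authors' log2 fold change and p-value of their own comparison. The submitters' processing notes name GRCm38 as the build and list DESeq2, Subread 1.5.2 with featureCounts, and Trimmomatic 0.36. Not given in the sources used here: which aligner, annotation release and strand setting they used. The value of 1 read divided 100% of the values to within 0.01 of a whole number, so reads were recovered. Columns were assigned to libraries by the labels, and 0 columns were left unassigned.

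The test was limma 3.58.1 in R 4.3.3, chosen because the unit is normalised. It was run with its trend option on log2(value + 1), keeping the authors' scaling. Tests were two-sided with Benjamini-Hochberg adjustment over the 16245 genes that reached 10 in 3 or more libraries. On that scale the change of a low gene is understated. Recovered reads in edgeR 4.0.16 and DESeq2 1.42.0, other scalings, pseudocounts and filters, a replicate block and leaving out each library were alternatives. edgeR without knockdown library 3 was added after the data were seen. The scripts were tested on simulated data. The members and the other gene lists were chosen with earlier results of these data known, so no list was tested as a set. All members are named; of the other lists, at most 6 genes that rose and 6 that fell by smallest adjusted p. Neighbouring genes and ratios were described by position and by complex or paralogue. Exonic lengths and positions come from GENCODE M21 and promoter windows from RefSeq (GRCm38.p6).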

Additional observations from a re-analysis of the deposited data

How the results depend on the processing

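Rrm2, Mcm5, Mcm10, Cdc6, Gmnn, Pole, Cdc45, Mcm7, Rrm1, Tk1, Pold2, Rfc3, Orc6, Mcm4 and Rpa1 kept direction and call in each alternative run at an adjusted p of 0.05. Leaving out single libraries, by limma or by edgeR without knockdown library 3, moved the number of all genes called from 7342 to between 5101 and 12948 (12754 by limma without knockdown library 3), members higher from 4 to between 3 and 8, members lower from 17 to between 12 and 24, other replication factors higher to between 1 and 11 (9 by limma without that library) and lower to between 15 and 34, and other nucleotide synthesis genes higher to between 5 and 10 and lower to between 8 and 24. The log2 change of Rfc1 then ran from -0.12 to 0.20 and that of Rfc4 from -0.34 to 0.27; the changed sign came without knockdown library 3 (-0.12 for Rfc1 and -0.34 for Rfc4 with limma, -0.10 and -0.33 with edgeR) and, for Rfc4, without control library 3 (-0.01). At an adjusted p under 0.01, 4828 genes were called, with 12 members lower, 13 other replication factors lower and 1 higher. DESeq2 called 7 members higher. Upper-quartile scaling moved the median log2 change of all genes from -0.00 to 0.11 and that of the members to -0.30. Same-numbered libraries deviated together only weakly (correlations of 0.017, 0.105 and 0.143). They were the best match for control libraries 1 and 3, while control library 2 correlated best with knockdown library 1 (0.116). The numbers were not taken as pairs in the main fit. A replicate block gave 16 members lower and 3 higher, losing Gins2 and Prim1, and 2 other replication factors higher. The cause of these shifts was not tested. The counts in this paragraph are not set beside the shares of all genes lower and higher in the same fit. They describe only how stable the calls were.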

Other observations

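Most of the listed cell cycle genes outside the 41 also fell with limma on all 6 libraries, against 23.5% of all genes tested, and none rose. The proliferation marker Mki67 fell by 2.93 ± 0.30 (SE; limma, adjusted p = 0.000604), and the cyclins Ccna2, Ccnb1 and Ccne1 and the kinase Cdk2 fell as well, with log2 changes of -3.02 ± 0.14, -2.76 ± 0.15, -2.80 ± 0.19 and -1.90 ± 0.12. Myc had 1675, 1800 and 1697 in the control and 972, 908 and 834 in the knockdown and fell by 0.93 ± 0.11 (limma, adjusted p = 0.00119). The cyclin Ccne2 had 247, 224 and 262 in the control and 232, 235 and 831 in the knockdown and did not pass, at 0.55 ± 0.51. Of the E2F factors, E2f2 had 2703, 3263 and 2675 in the control and 80.4, 67.8 and 88.3 in the knockdown and E2f8 had 2432, 2266 and 2134 in the control and 68.0, 66.9 and 61.5 in the knockdown, and both fell. E2f7 and E2f3 fell too, with changes of -2.11 ± 0.21 and -1.18 ± 0.23, while E2f1 had 982, 952 and 1028 in the control and 1249, 1216 and 1052 in the knockdown and did not pass (adjusted p = 0.151) but was called higher without knockdown library 3 (0.32, 0.000768). Of 6 listed genes that restrain the cycle, Cdkn1a, Cdkn1c and Rb1 fell and Cdkn1b, Rbl1 and Rbl2 did not pass. Cdkn1a, which encodes p21, had 113313, 107641 and 120925 in the control and 12084, 12530.2 and 20366 in the knockdown, Cdkn1c had 6905, 6953 and 7739 in the control and 183, 171 and 321 in the knockdown, and Rb1 had 6357, 6091 and 6028 in the control and 1616, 1486 and 1202 in the knockdown. Rbl2, a relative of Rb1, lies 5.77 Mb after Orc6, within the chromosome 8 stretch described above where most genes were higher. Rbl2 had 1396, 1445 and 1357 in the control and 6069.5, 6144 and 1423 in the knockdown, a change of 1.43 ± 0.58 (adjusted p = 0.0922) that passed as higher without knockdown library 3 (2.13, 1.26e-10) and with edgeR (0.0404). Cdkn1b was at -0.08, or 0.12 and past the threshold (0.0417) without that library, and Rbl1 at -0.32, or -0.13 and not past. The mitotic kinase Cdk1 had 1188, 1105 and 1206 in the control and 701, 790.5 and 1291 in the knockdown, with a change of -0.38 ± 0.24 that did not pass (adjusted p = 0.25). Without knockdown library 3, Cdk1 was lower at -0.65 (1.84e-05).

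By chromosome, 7 of the 41 members lie on chromosome 5, where 5 fell (Mcm7, Pole, Rfc2, Rfc3 and Rfc5). Among all genes tested on any chromosome, 23.5% fell and 21.7% rose. The median log2 change of the tested genes of chromosome 5 was -0.31. Chromosome 8 holds 6 members, of which Mcm5 and Gins2 fell and Orc6 rose, and had a median of 0.02. Around Cdt1, 26 of 49 tested genes within 1 Mb fell, against 23.5% of all genes tested. The median of the 49 was -0.79, while Cdt1 itself did not pass.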
